A study of Mus musculus with 12 samples.

Results

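Gonadotrophs are the cells of the anterior pituitary that make luteinizing hormone (LH) and follicle-stimulating hormone (FSH), and 10 genes of these cells were followed through 12 bulk RNA-seq libraries of mouse pituitary. The genes are the hormone subunits Lhb, Fshb and Cga, the receptors Gnrhr and Tgfbr3l, the nuclear receptors Nr5a1 and Nr0b1, the forkhead factor gene Foxp2, the hormone-responsive gene Greb1 and the secreted phosphoprotein gene Spp1. They were chosen by name from the 55421 gene IDs of the count tables, 55154 of which had a symbol in the GENCODE M21 annotation, and all 10 were found. The question of the series was which genes respond in the pituitary to AA14, a ligand studied through the receptor GPR101, and whether that response needs Gpr101 in the cells reached by a cre virus.

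The libraries formed 4 groups of 3, all from C57BL/6 mice whose genotype label gives Gpr101 as fl/fl, that is, flanked by the sites that cre recombines. The cre AA14 and cre vehicle groups carried the label Cga-creAAVGpr101fl/fl, and the ctrl AA14 and ctrl vehicle groups the label Cga-ctrlAAVGpr101fl/fl. Mice received AA14 or a control vehicle for 1 week, after which pituitary cells were dispersed and put through flow cytometry before RNA was made. AAV is the adeno-associated virus that delivered cre recombinase or its control, and the labels name Cga in both viruses without stating the promoter, the dose, the sex or age of the mice, whether cytometry selected any cells, or whether glands were pooled. All groups, the controls included, share the floxed allele, a virus and the dispersal. Nothing in the labels says that the 3 libraries of a group came from separate mice, so p-values measure only the spread between these libraries, which may be technical.

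Gpr101 itself, the gene the cre virus was meant to remove, was low everywhere. Levels are given in CPM, the counts scaled to a common library size, with values of a group in the order of replicates 1, 2 and 3. It was at 2.57, 2.43 and 0.901 CPM in the cre AA14 libraries and at 2.43, 4.29 and 1.29 CPM in the cre vehicle libraries. It was at 3.30, 2.20 and 6.60 CPM in the ctrl AA14 libraries and at 1.65, 1.22 and 16.1 CPM in the ctrl vehicle libraries. The cre and ctrl libraries overlapped, so the deletion was not visible at this level of the whole transcript. Library totals ran from 48693682 to 73388221 counts. The growth hormone gene Gh, at 90441 to 241860 CPM, took far more of each library than any gonadotroph gene. The Y-linked gene Ddx3y was at 48.4 to 109 CPM in all 12 libraries, and Xist, transcribed from the inactive X chromosome of females, was at most at 0.568 CPM. In 3 libraries, ctrl AA14 replicate 1, ctrl vehicle replicate 3 and cre vehicle replicate 2, 6 oligodendrocyte markers summed to 721 CPM or more, and cre AA14 replicate 1 stood apart through the early response genes Fos (662 CPM) and Egr1 (1101 CPM).

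Gonadotropin-releasing hormone (GnRH) from the hypothalamus acts on the receptor encoded by Gnrhr, which signals through Gq proteins, calcium and protein kinase C to the gonadotropin genes. LH and FSH are each a dimer of the shared alpha subunit, encoded by Cga, with a beta subunit of their own, encoded by Lhb and Fshb, and thyrotropin from thyrotrophs uses the same alpha subunit with the product of Tshb. Activins raise Fshb through SMAD proteins and FOXL2, and inhibins oppose them. Nr5a1 encodes steroidogenic factor, a nuclear receptor that binds promoters of Lhb, Cga and Gnrhr, and Nr0b1 encodes DAX, a partner that represses it. Tgfbr3l encodes a co-receptor through which inhibin B acts on mouse gonadotrophs.

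The promoters of the 3 hormone subunits and of Tgfbr3l are shown, because the factors whose genes are described below have known recognition letters. They are a selection. Spp1, which separated the library states described below as Fshb, Cga and Tgfbr3l did, is left out, and its 2 promoters held none of the motifs. Lhb, which is shown, overlapped between those states. Each runs from 250 bases before to 50 bases after the RefSeq start site on GRCm38.p6 and is printed 5′ to 3′ on the gene's strand. Lhb is at chr7:45420696-45420995 on the plus strand, Fshb at chr2:107059602-107059901 on the minus strand, Cga at chr4:34893529-34893828 on the plus strand and Tgfbr3l at chr8:4247964-4248263 on the plus strand. Capitals mark matches to the motifs named after the sequences.
Lhb: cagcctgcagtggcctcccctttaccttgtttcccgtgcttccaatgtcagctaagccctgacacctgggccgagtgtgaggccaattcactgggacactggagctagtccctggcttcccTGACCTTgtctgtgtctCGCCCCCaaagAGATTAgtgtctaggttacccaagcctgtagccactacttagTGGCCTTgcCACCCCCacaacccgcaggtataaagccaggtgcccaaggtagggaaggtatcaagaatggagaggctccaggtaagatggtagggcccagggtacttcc
Fshb: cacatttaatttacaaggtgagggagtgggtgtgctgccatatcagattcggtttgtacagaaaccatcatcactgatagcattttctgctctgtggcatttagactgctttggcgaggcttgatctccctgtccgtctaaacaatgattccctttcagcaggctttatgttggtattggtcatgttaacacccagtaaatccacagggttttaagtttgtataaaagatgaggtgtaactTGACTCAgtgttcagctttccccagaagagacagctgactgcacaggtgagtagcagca
Cga: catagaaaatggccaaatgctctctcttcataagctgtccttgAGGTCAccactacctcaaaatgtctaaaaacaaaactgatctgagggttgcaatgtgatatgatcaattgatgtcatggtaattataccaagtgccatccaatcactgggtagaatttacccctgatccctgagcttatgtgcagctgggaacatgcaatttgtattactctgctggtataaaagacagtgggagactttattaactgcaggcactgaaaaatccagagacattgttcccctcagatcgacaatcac
Tgfbr3l: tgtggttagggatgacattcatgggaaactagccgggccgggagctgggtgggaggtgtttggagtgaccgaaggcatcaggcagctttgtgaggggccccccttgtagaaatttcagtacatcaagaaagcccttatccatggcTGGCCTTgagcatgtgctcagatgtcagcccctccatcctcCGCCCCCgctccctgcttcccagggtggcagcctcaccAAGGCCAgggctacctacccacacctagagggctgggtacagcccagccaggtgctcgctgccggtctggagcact

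The letters searched on both strands were AAGGTCA and AAGGCCA for NR5A1, TAATCC and TAATCT for PITX factors, CGCCCCC and CACCCCC for EGR1, TGACGTCA for the cyclic AMP response element (CRE), TGACTCA for the factor AP-1 and AGGTCA for the estrogen receptor, which overlaps the first NR5A1 motif. The Lhb promoter held TGACCTT at -129 to -123 and TGGCCTT at -59 to -53 from the start site, which are the 2 NR5A1 motifs on the opposite strand. It also held CGCCCCC at -112 to -106, CACCCCC at -50 to -44 and AGATTA, the opposite strand of TAATCT, at -101 to -96. Fshb held TGACTCA at -9 to -3, and Cga held AGGTCA at -207 to -202. Tgfbr3l held AAGGCCA at -26 to -20, its opposite strand at -105 to -99, and CGCCCCC at -64 to -58. Of 32851 RefSeq promoters of 300 bases, 4.72% held AAGGTCA, 6.20% AAGGCCA, 8.19% TAATCT, 16.4% CGCCCCC, 10.8% CACCCCC, 5.20% TGACTCA and 16.3% AGGTCA. TGACGTCA, in 1.79% of promoters, and TAATCC, in 7.06%, were in none of the 8 members found in the table, and no promoter was matched for Nr5a1 and Foxp2. A match is a description of letters and not of a bound site.

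The members spanned a wide range of abundance. On the scale of CPM per kilobase of exon, the mean level over the 12 libraries was 6050 for Cga, 999.6 for Lhb and 737 for Fshb. Spp1 followed at 131, Tgfbr3l at 64.0, Gnrhr at 27.3 and Nr5a1 at 8.20, and Greb1, Nr0b1 and Foxp2 were lowest at 2.85, 2.59 and 0.928. Neighbours in this order kept it in all 12 libraries except at 3 places. Spp1 was above Tgfbr3l in 11 libraries and Tgfbr3l above Gnrhr in 10. Greb1 was above Nr0b1 in only 6 of 12, so that pair was not separated. Tgfbr3l shares 52.2% of its exons with the gene Gm49320 on the same strand, so its place below Spp1 is uncertain. Using the longest transcript of each gene instead of all its exons left the ranks as they were, with Foxp2 then at 2.24. Together Lhb, Fshb and Cga took 0.449% to 0.981% of all counts in a library.

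**Figure D1:**
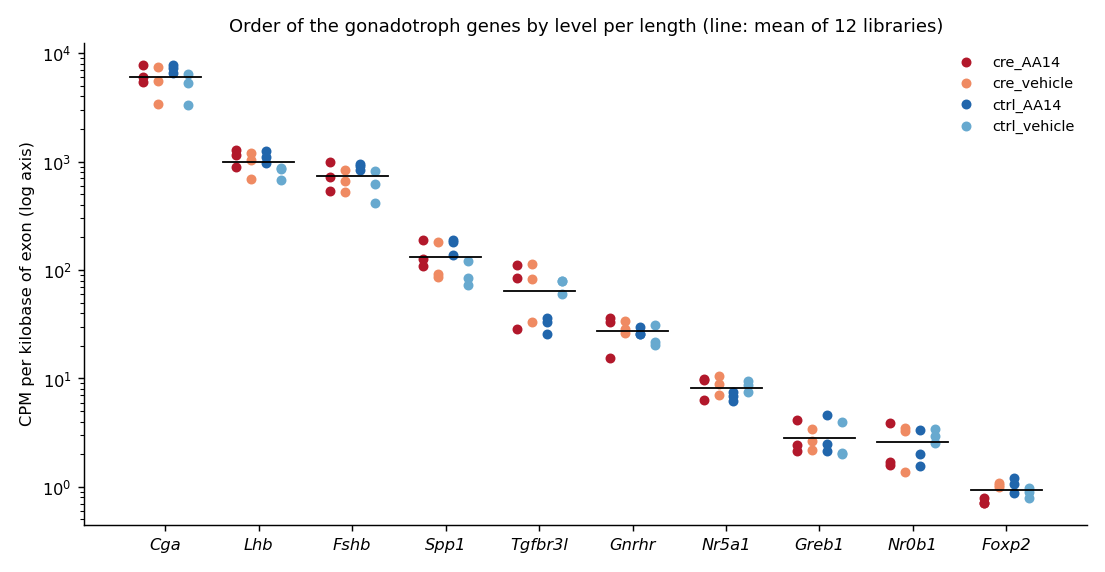
Level of each gonadotroph gene in CPM per kilobase of exon (log axis), 1 point per library, coloured by group, genes ordered by their mean over the 12 libraries. Cga lies highest, with a mean of 6050, and Foxp2 lowest, with a mean of 0.928.

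The alpha subunit was in excess of its beta partners in every library. Per kilobase, Cga was 2.73 to 3.71 times the sum of Lhb, Fshb and Tshb, with a mean of 3.31 ± 0.268 (SD, n = 12). The size of this ratio depends on the lengths used, here all exons of each gene. By the longest transcript the mean of Cga was 8163 instead of 6050, and Lhb and Fshb were unchanged. The ratio was not computed on that length. Tshb entered the sum at only 32.2 to 118 CPM per kilobase. The groups overlapped in this ratio, at 3.33 ± 0.0859 in cre AA14, 3.14 ± 0.383 in cre vehicle, 3.42 ± 0.157 in ctrl AA14 and 3.35 ± 0.387 in ctrl vehicle libraries (SD, n = 3 each). Lhb exceeded Fshb per kilobase in all 12 libraries, by 1.02 to 2.11 times, and the highest ratio was in cre AA14 replicate 1.

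None of the 10 genes passed the threshold in any of 5 comparisons, which were AA14 against vehicle after each virus, cre against control virus under each treatment, and the difference between the AA14 effects after the 2 viruses. The test was edgeR's quasi-likelihood test on counts with a Benjamini-Hochberg adjusted p of 0.05 over the 22630 genes tested. Hardly any gene of the transcriptome passed either: 0.00442% for AA14 after control virus, 0% for AA14 after cre virus, 0% for cre under AA14, 0.00442% for cre under vehicle and 0.00442% for the difference of the AA14 effects. DESeq2 also called no member in any comparison, while over all genes it called 10.2% of genes for AA14 after control virus, 0.0619% for AA14 after cre virus, 0.15% for cre under AA14, 0.084% for cre under vehicle and 0.115% for the difference of the AA14 effects. Because the tissue was sequenced in bulk, fewer gonadotrophs and less RNA per gonadotroph cannot be told apart.

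**Figure D2:**
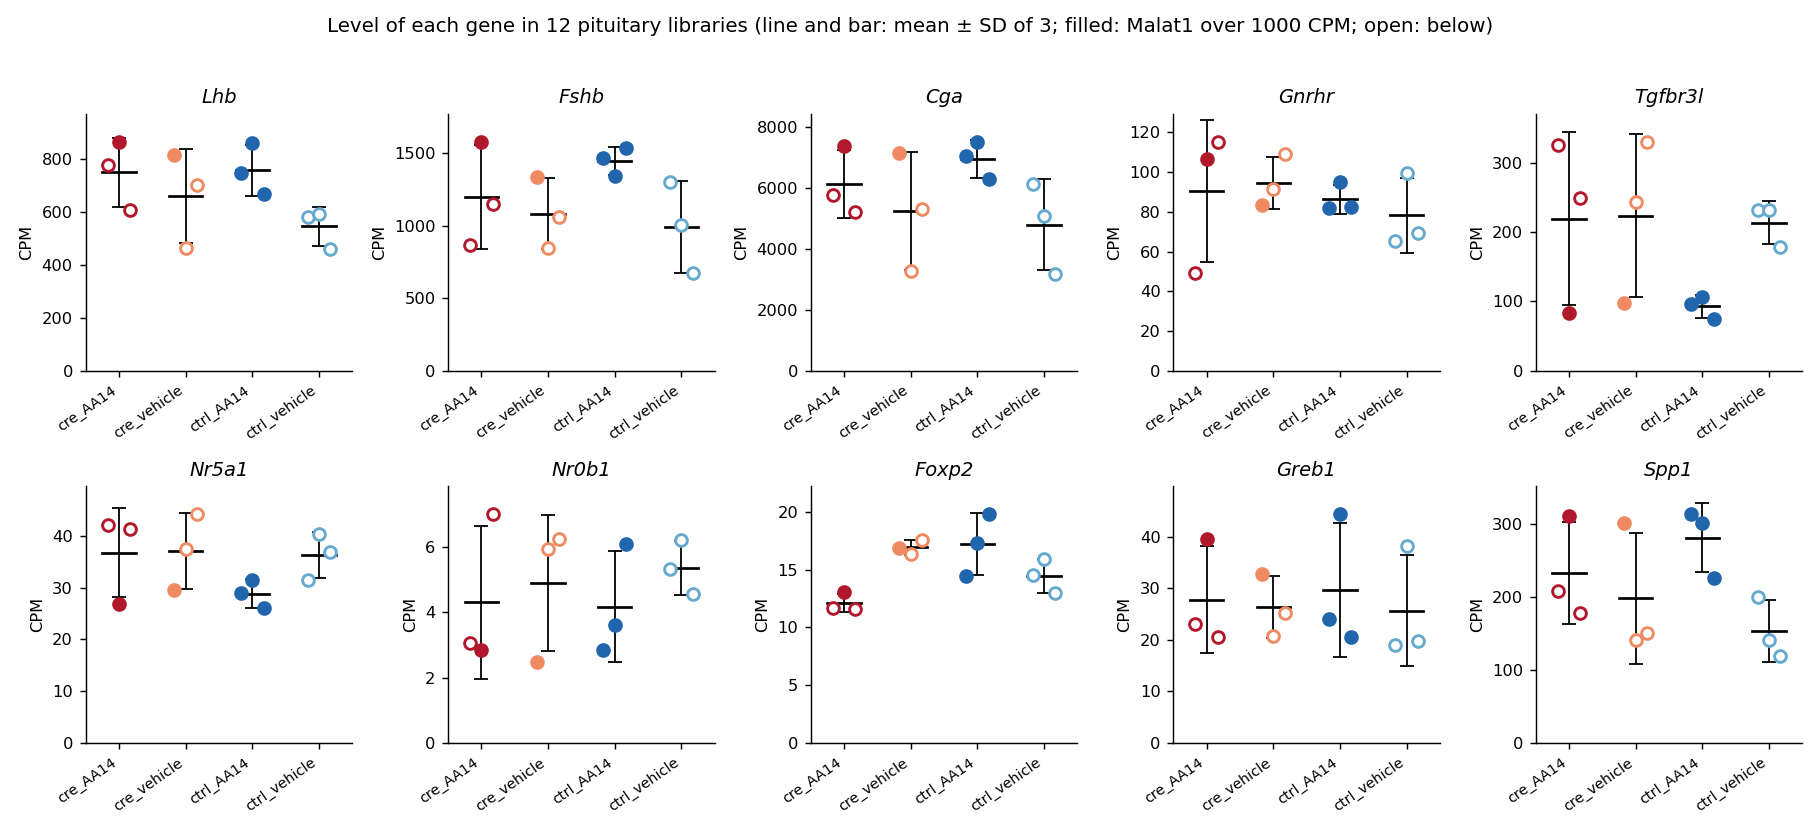
CPM of each gene in every library, 1 panel per gene with its own axis from 0, points for the 3 libraries and a line with bars for the mean ± SD of each group; filled points are libraries with Malat1 over 1000 CPM. Foxp2 in cre AA14 libraries (11.6 to 13.0 CPM) lies below the cre vehicle libraries (16.3 to 17.6 CPM), and Tgfbr3l is low in all 3 ctrl AA14 libraries (74.9 to 107 CPM).

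Among the hormone genes, AA14 after control virus went with higher values of all 3 subunits, none past the threshold. Lhb was at 746, 859 and 666 CPM in ctrl AA14 libraries, against 580, 593 and 460 CPM in ctrl vehicle libraries. Fshb was at 1464, 1343 and 1535 CPM in ctrl AA14 libraries, against 1303, 1001 and 671 CPM in ctrl vehicle libraries. Cga was at 7043, 7502 and 6269 CPM in ctrl AA14 libraries, against 6127, 5063 and 3170 CPM in ctrl vehicle libraries. For each of these genes every ctrl AA14 library was above every ctrl vehicle library, with ctrl vehicle replicate 3 the lowest. That library and cre vehicle replicate 2, both rich in oligodendrocyte markers, had the lowest values of all 12 libraries in each of these genes. The third such library, ctrl AA14 replicate 1, was not low. With 1 library left out, the log2 differences fell to as little as 0.36 for Lhb, 0.33 for Fshb and 0.31 for Cga. The part of these libraries was not tested. The fitted log2 differences were 0.48 for Lhb (95% interval 0.01 to 0.94, edgeR adjusted p = 0.204), 0.55 for Fshb (-0.04 to 1.13, adjusted p = 0.235) and 0.54 for Cga (-0.09 to 1.16, adjusted p = 0.267).

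Spp1 and Tgfbr3l had the widest differences in the same comparison, in opposite directions. Spp1, which encodes osteopontin and is also made by macrophages, was at 314, 302 and 226 CPM in ctrl AA14 libraries, against 200.4, 141 and 119 CPM in ctrl vehicle libraries. Tgfbr3l was at 97.0, 107 and 74.9 CPM in ctrl AA14 libraries, against 231, 232 and 178 CPM in ctrl vehicle libraries. Neither gene's groups overlapped. The log2 difference was 0.87 for Spp1 (95% interval 0.17 to 1.58, unadjusted p = 0.0196, edgeR adjusted p = 0.154) and -1.20 for Tgfbr3l (-2.25 to -0.16, unadjusted p = 0.0278, adjusted p = 0.170).

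The call on these 2 genes depended on the tool. With limma-voom and quality weights, the adjusted p was 0.0239 for Spp1 (log2 difference 0.86) and 0.0279 for Tgfbr3l (-1.23), in a fit that called 15.1% of all genes. In an edgeR fit to the ctrl AA14 and ctrl vehicle libraries alone, which called 10.6% of genes, Tgfbr3l passed at an adjusted p of 0.0191 (log2 difference -1.19) and Spp1 did not.

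Counted over the members, 4 of 10 were higher without overlap in ctrl AA14 than in ctrl vehicle libraries (Lhb, Fshb, Cga and Spp1), where 17.6% of all genes tested were, and 1 was lower (Tgfbr3l), where 20.1% were. The total of 5 of 10 stands beside 37.7% of all genes. At an unadjusted p under 0.05, 3 of 10 passed (Lhb, Spp1 and Tgfbr3l), beside 23.8% of all genes, so the share of members was near that of the transcriptome. The other members overlapped between these groups. Their log2 differences were 0.14 for Gnrhr, -0.33 for Nr5a1, -0.36 for Nr0b1, 0.25 for Foxp2 and 0.21 for Greb1.

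After cre virus, AA14 and vehicle libraries overlapped in all 3 hormone genes. Lhb was at 776, 864 and 607 CPM in cre AA14 libraries, against 816, 465 and 700 CPM in cre vehicle libraries. Fshb was at 867, 1577 and 1146 CPM in cre AA14 libraries, against 1338, 849 and 1059 CPM in cre vehicle libraries. Cga was at 5772, 7361 and 5213 CPM in cre AA14 libraries, against 7149, 3277 and 5314 CPM in cre vehicle libraries. In each of these genes cre AA14 replicate 2 and cre vehicle replicate 1 were the highest of their groups. The log2 differences were 0.18 for Lhb (95% interval -0.28 to 0.65), 0.15 for Fshb (-0.44 to 0.73) and 0.22 for Cga (-0.40 to 0.84). The differences between the AA14 effects after cre and after control virus were -0.29, -0.40 and -0.31 on the log2 scale for Lhb, Fshb and Cga, with edgeR adjusted p-values of 0.755, 0.729 and 0.801.

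Tgfbr3l split within both cre groups. It was at 326, 83.0 and 250.0 CPM in cre AA14 libraries and at 97.5, 244 and 331 CPM in cre vehicle libraries, so 1 library of each group lay with the ctrl AA14 libraries and 2 lay above the ctrl vehicle libraries. The log2 difference for AA14 after cre virus was -0.03 (95% interval -1.06 to 1.00). Between the viruses under AA14 it was 1.24 (0.20 to 2.29, unadjusted p = 0.0241, edgeR adjusted p = 0.582), with cre AA14 replicate 2 inside the range of the ctrl AA14 libraries. Spp1 split the other way, at 209, 311 and 178 CPM in cre AA14 libraries and at 301, 141 and 151 CPM in cre vehicle libraries, with a log2 difference of 0.23 (-0.47 to 0.93).

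The libraries that stood together in Tgfbr3l, Spp1, Cga and Fshb were those rich in Malat1, an abundant long noncoding RNA retained in the nucleus. Malat1 exceeded 1000 CPM in 5 libraries, at 1105 to 1560 CPM, which were cre AA14 replicate 2, cre vehicle replicate 1 and all 3 ctrl AA14 libraries. It was at 199 to 549 CPM in the other 7. Fshb was at 1338 to 1577 CPM in the 5 Malat1-rich libraries and at 671 to 1303 CPM in the other 7. Cga was at 6269 to 7502 CPM in the 5 and at 3170 to 6127 CPM in the 7, and Spp1 was at 226 to 314 CPM in the 5 and at 119 to 209 CPM in the 7. Tgfbr3l was at 74.9 to 107 CPM in the 5 and at 178 to 331 CPM in the 7, with medians 2.52 times apart. Thus 3 of 10 members were higher in all 5 libraries, where 9.23% of all genes tested were, and 1 of 10 was lower, where 13.1% were; the 4 of 10 without overlap stand beside 22.4% of all genes.

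Lhb followed the same direction as Cga and Fshb with some overlap, at 666 to 864 CPM in the 5 Malat1-rich libraries and at 460 to 776 CPM in the other 7. Nr5a1 ran from 26.0 to 31.6 CPM in the 5 libraries and from 31.6 to 44.3 CPM in the 7, which touched at their ends. Gnrhr, Nr0b1, Foxp2 and Greb1 overlapped more widely. The ratio of Cga to Tgfbr3l, taken on the log2 scale of CPM, was 6.14 to 6.47 in the 5 libraries and 3.75 to 4.73 in the 7. This gap follows from Cga being higher and Tgfbr3l lower in the same 5 libraries, and is not a separate result. Foxl2, chosen here after its values were seen, was at 8.83 to 13.5 CPM in the 5 and at 16.99 to 24.9 CPM in the 7. Tshb, the beta subunit gene of thyrotrophs, was at 386 to 539 CPM in the 5 and at 146 to 360 CPM in the 7.

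**Figure D3:**
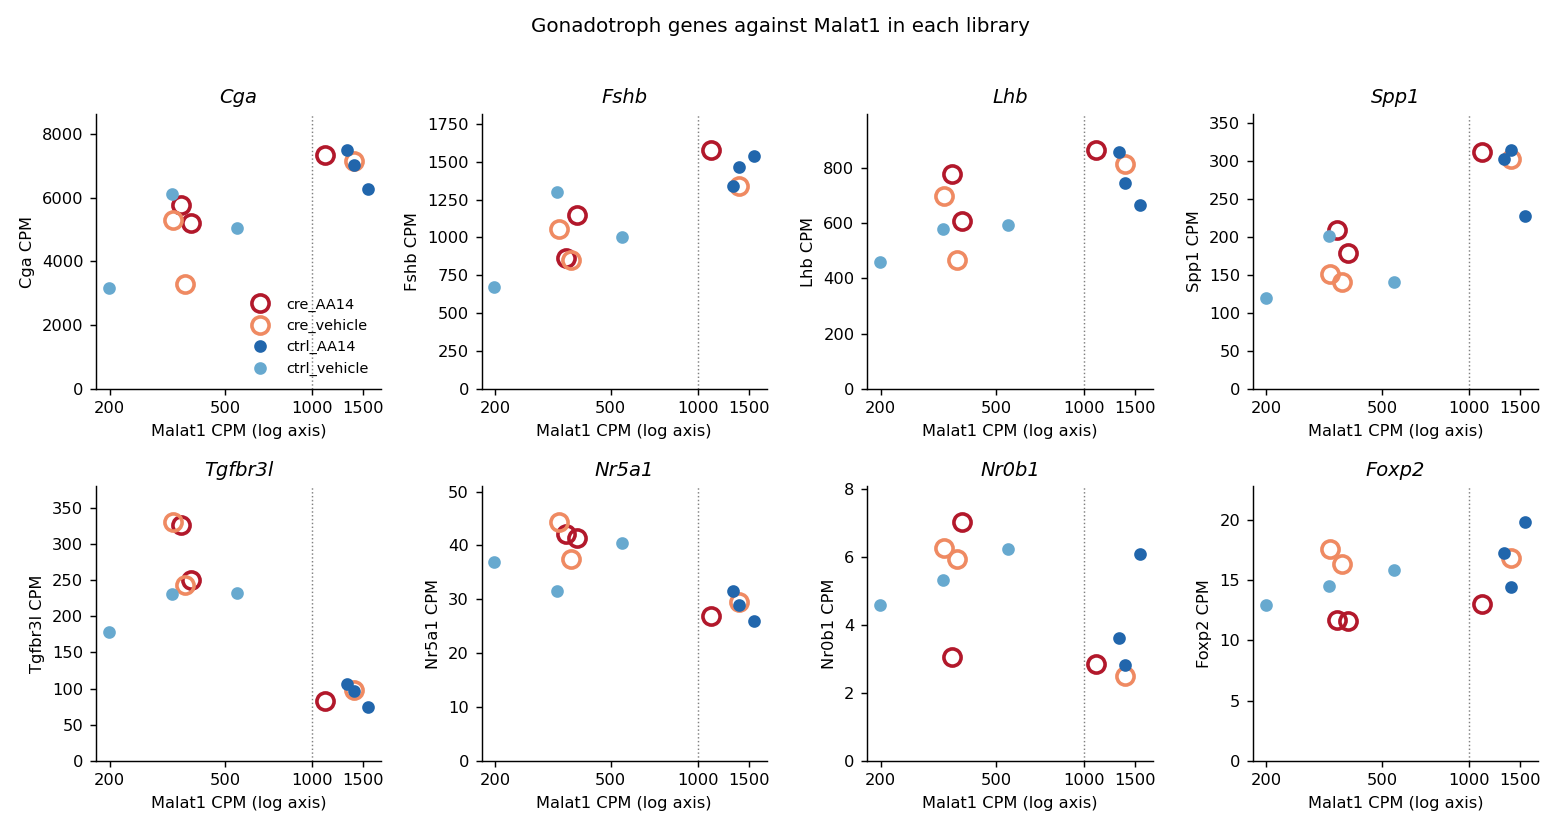
CPM of 8 of the genes against Malat1 CPM (log axis) in each library, open circles for cre virus and filled points for control virus, with a dotted line at 1000 CPM of Malat1. The 5 libraries right of the line include all 3 ctrl AA14 libraries; Cga, Fshb and Spp1 are higher and Tgfbr3l lower in them than in the other 7.

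All ctrl AA14 libraries were Malat1-rich and all ctrl vehicle libraries were not, so in mice with control virus the library state and the treatment cannot be told apart. A further edgeR fit took log2 Malat1 as a covariate over all 12 libraries. Its difference for AA14 after control virus was 0.16 for Tgfbr3l, 0.002 for Spp1, 0.04 for Lhb, -0.12 for Fshb and -0.14 for Cga. Malat1 and treatment ran together in these 2 groups, so such estimates do not show that a difference was absent. Within the Malat1-rich libraries, Tgfbr3l was at 83.0 CPM in the cre AA14 library and at 97.5 CPM in the cre vehicle library. Within the other libraries Tgfbr3l averaged 288 CPM in 2 cre AA14 and 287 CPM in 2 cre vehicle libraries. Not all members were as close in that split. The log2 ratios of the means, with no test, were 0.41 for Spp1, 0.35 for Cga, 0.25 for Lhb and 0.08 for Fshb. They were 0.03 for Nr5a1, -0.08 for Greb1, -0.27 for Nr0b1, -0.28 for Gnrhr and -0.54 for Foxp2. Under vehicle in this state, Tgfbr3l was at 244 and 331 CPM in 2 cre and 178 to 232 CPM in 3 ctrl libraries. The log2 ratio of the means was 0.43, with no test. Foxp2 separated there too. How many of all genes separate in so small a split was not counted, so neither gene's gap is read as a result. Under AA14, Tgfbr3l was at 83.0 CPM in the Malat1-rich cre library, against 74.9 to 107 CPM in the 3 ctrl libraries. What Malat1 tracks in these preparations was not tested.

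Base composition is given beside these genes because it differed among them. The GC content of the longest transcript was 40.7% for Gnrhr, 42.6% for Foxp2, 43.3% for Spp1, 43.6% for Fshb and 46.1% for Cga. It was 53.4% for Greb1, 55.2% for Nr0b1, 55.6% for Tgfbr3l, 59.2% for Nr5a1 and 60.9% for Lhb, and the median of the tested genes was 49.4%. The 3 members that were higher in all Malat1-rich libraries were below that median, and Tgfbr3l was above it. Lhb, with the highest GC content, ran in the direction of Cga. The part of base composition in the result was not tested.

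Foxp2, a forkhead factor gene expressed in gonadotrophs of the mouse pituitary, was lowest on average in the cre AA14 group. It was at 11.7, 13.0 and 11.6 CPM in cre AA14 libraries and at 16.9, 16.3 and 17.6 CPM in cre vehicle libraries. It was at 14.5, 17.3 and 19.8 CPM in ctrl AA14 libraries and at 14.6, 15.9 and 12.9 CPM in ctrl vehicle libraries. The cre AA14 libraries lay below all cre vehicle and all ctrl AA14 libraries, and 2 of them were the lowest of the 12. The cre vehicle libraries lay above all ctrl vehicle libraries.

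For AA14 after cre virus, the log2 difference in Foxp2 was -0.48 (95% interval -0.84 to -0.13, unadjusted p = 0.0119, edgeR adjusted p = 1.00). It was the only member without overlap in that comparison, where 2.54% of all genes were lower and 5.86% did not overlap in either direction, and the only one of 10 at an unadjusted p under 0.05, beside 2.29% of all genes. For cre against control virus under AA14 it was -0.51 (-0.86 to -0.15, unadjusted p = 0.00918, adjusted p = 0.582). Again 1 of 10 members was lower without overlap, beside 6.76% of all genes (14.1% in either direction), and 2 of 10, Foxp2 and Tgfbr3l, had an unadjusted p under 0.05, beside 8.52%. Under vehicle the Foxp2 difference between the viruses was 0.23 (-0.13 to 0.58), and Foxp2 was the only member without overlap there, beside 2.39% of genes higher and 4.92% in either direction. No member had an unadjusted p under 0.05 under vehicle, beside 2% of all genes.

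The AA14 effect on Foxp2 after cre virus minus that after control virus was -0.73 on the log2 scale (95% interval -1.23 to -0.23, unadjusted p = 0.00797, edgeR adjusted p = 0.631). It was the only member of 10 at an unadjusted p under 0.05 in this comparison, beside 7.03% of all genes. Over 21 fits, which were the main one, the alternative settings and the omissions of a library, this difference ran from -0.84 to -0.58. It passed an adjusted p of 0.05 in none of them. Neither Malat1 state holds all 4 groups, so this difference of effects cannot be formed within a state, and Foxp2 is given by library only. Within the Malat1-rich libraries it was at 13.0 CPM in the cre AA14 library, 16.9 CPM in the cre vehicle library and 14.5 to 19.8 CPM in the ctrl AA14 libraries. Within the other libraries it was at 11.7 and 11.6 CPM in cre AA14, at 16.3 and 17.6 CPM in cre vehicle and at 14.6, 15.9 and 12.9 CPM in ctrl vehicle libraries.

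**Figure D4:**
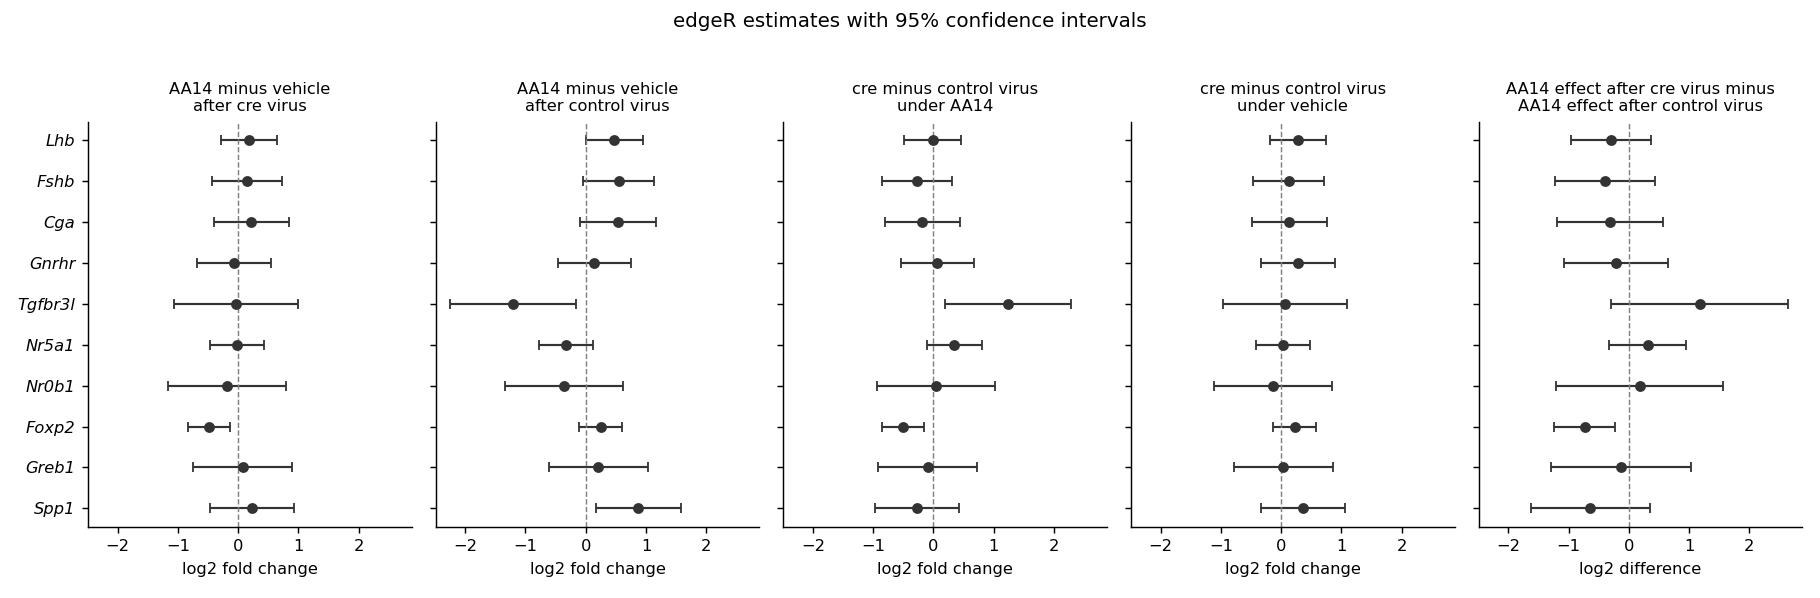
Log2 differences of the 10 genes in the 5 comparisons, 1 panel per comparison, points for edgeR estimates and lines for 95% intervals, positive where AA14 or cre is the higher side. Foxp2 lies below 0 for AA14 after cre virus (-0.48) and for cre under AA14 (-0.51), and Tgfbr3l at -1.20 for AA14 after control virus; no gene passed an adjusted p of 0.05.

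The GnRH receptor gene Gnrhr overlapped between all groups. It was at 49.4, 107 and 115 CPM in cre AA14 libraries, 83.5, 91.3 and 109 CPM in cre vehicle libraries, 81.9, 94.9 and 82.2 CPM in ctrl AA14 libraries and 65.3, 99.7 and 69.5 CPM in ctrl vehicle libraries. The lowest of the 12 values was in cre AA14 replicate 1, the library with high Fos and Egr1. For Gnrhr the log2 difference for AA14 after control virus had a 95% interval of -0.47 to 0.75 and that for AA14 after cre virus one of -0.68 to 0.55.

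Nr5a1 was at 42.2, 26.9 and 41.3 CPM in cre AA14 libraries, 29.5, 37.5 and 44.3 CPM in cre vehicle libraries, 29.0, 31.6 and 26.0 CPM in ctrl AA14 libraries and 31.6, 40.5 and 36.9 CPM in ctrl vehicle libraries. Its highest library stood 1.70 times above its lowest, the narrowest range of the 10 genes, next to 1.71 times in Foxp2. Nr0b1 was at 3.06, 2.85 and 7.02 CPM in cre AA14 libraries, 2.49, 5.94 and 6.26 CPM in cre vehicle libraries, 2.83, 3.61 and 6.09 CPM in ctrl AA14 libraries and 5.33, 6.22 and 4.57 CPM in ctrl vehicle libraries. Low and high libraries occurred in 3 of the 4 groups, and ctrl vehicle libraries lay in the upper part. Nr0b1 also had the fewest reads, 123 to 444 counts, and its lowest value of 2.49 CPM had an exact 95% binomial interval of 2.07 to 2.97 CPM. Such intervals cover counting error only. For the other members the upper bound lay at most 8.20% above the value.

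Greb1, an estrogen-induced gene in human breast cancer cells, varied between libraries of the same group. It was at 23.1, 39.6 and 20.5 CPM in cre AA14 libraries, 32.7, 20.8 and 25.3 CPM in cre vehicle libraries, 23.9, 44.4 and 20.5 CPM in ctrl AA14 libraries and 19.1, 38.2 and 19.7 CPM in ctrl vehicle libraries. In Greb1, 1 library of each group stood at 32.7 CPM or more and the other 8 at 25.3 CPM or less. No comparison gave a log2 difference above 0.21 in size.

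Among the 7 libraries with less Malat1, Gnrhr and Nr0b1 had the smallest p of any member pair (Pearson's r = 0.94, exact permutation p = 0.00317, two-sided; Spearman's rho = 0.96, p = 0.00278). Without the 2 libraries farthest from the median of Gnrhr r was 0.98, and over 45 pairs of members the adjusted p was 0.125 for both measures. Over all 12 libraries, which fall into the 2 Malat1 states, r for Gnrhr and Nr0b1 was 0.34, given as a description. Cga and Spp1 had r = 0.82 (exact permutation p = 0.00556, adjusted p = 0.125) and rho = 0.89 (p = 0.0123, adjusted p = 0.185) over the same 7 libraries, and 0.83 without the 2 farthest from the median of Cga; over all 12, r was 0.90, also a description. By rank, Tgfbr3l and Nr5a1 stood closer in the 7 (rho = 0.93, exact permutation p = 0.00675, adjusted p = 0.152), with r = 0.62 (p = 0.126). Tgfbr3l and Lhb had r = 0.85 in the 7 (exact permutation p = 0.0202, adjusted p = 0.304) and -0.46 over all 12. Tgfbr3l and Cga had r = 0.60 in the 7 (p = 0.198) and -0.54 over all 12. None of the 45 pairs passed the correction, and 5 had an unadjusted p under 0.05.

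The genes most like each member over the 12 libraries were sought by Pearson's r of log2(CPM + 0.5) among the 10244 genes whose mean level reached 10 CPM. The libraries differ in Malat1 state and in depth, which all genes of a library share, so the values only describe them. Tgfbr3l was closest to Aph1a, Six2 and Eef2 (0.99 each), Cga to Atp6v1g1 (0.98), Stk33 (0.98) and Odr4 (0.97), and Fshb to Ccng1, Yme1l1 and Zfp119a (0.97 each). Nr5a1 was closest to Ogfr (0.98), Spp1 to Mrps14 (0.97), Lhb to Ddx41 (0.96), Nr0b1 to Cep19 (0.94) and Gnrhr to Dbt (0.93). Foxp2 and Greb1 had the least similar neighbours, Lin54 (0.89) and Tsr1 (0.86).

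The neighbouring pathways had no gene past the threshold in any comparison. Of 12 gonadotroph transcription factor genes, 4 had positive and 8 negative log2 differences for AA14 after control virus, with a median of -0.54, beside -0.02 over all genes, and 3 had an unadjusted p under 0.05, beside 23.8% of all genes tested. Gata2, which acts on gonadotroph and thyrotroph genes, was at 18.2 ± 2.33 CPM in ctrl AA14 and 32.8 ± 10.2 CPM in ctrl vehicle libraries (SD, n = 3 each), a log2 difference of -0.85 (edgeR adjusted p = 0.159). Pitx1, a homeobox gene of the pituitary lineages, was at 88.9 ± 14.5 CPM in ctrl AA14 and 185 ± 52.6 CPM in ctrl vehicle libraries (log2 difference -1.06, adjusted p = 0.168). Both were lower in all 3 ctrl AA14 libraries, as 20.1% of all genes were. After cre virus 6 of the 12 were positive and 6 negative, with a median of -0.01, and Otx1 and Egr1 had the smallest p-values.

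Of 15 genes of activin, inhibin and follistatin signalling, 4 were positive and 11 negative for AA14 after control virus (median -0.23, beside -0.02 over all genes), and 5 had an unadjusted p under 0.05, beside 23.8% of all genes. The activin receptor genes Acvr1b and Acvr2b had the smallest p-values. Acvr1b was at 20.1 ± 1.62 CPM in ctrl AA14 and 40.5 ± 10.9 CPM in ctrl vehicle libraries (log2 difference -1.01), and Acvr2b was at 1.28 ± 0.161 CPM and 3.88 ± 1.39 CPM in the same groups (-1.59), each with an edgeR adjusted p of 0.141. For cre under AA14, 11 of the 15 were positive (median 0.23, beside -0.01 over all genes). Inhbb, which encodes a subunit of activin B and inhibin B, was at 36.4 ± 19.6 CPM in cre AA14 and 16.99 ± 5.26 CPM in ctrl AA14 libraries (log2 difference 1.10, adjusted p = 0.582).

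Of 24 genes of GnRH receptor signalling, 5 were positive and 19 negative for AA14 after control virus (median -0.32, beside -0.02 over all genes), and 8 had an unadjusted p under 0.05, beside 23.8% of all genes. Gna11 and Gnaq encode the Gq-class alpha subunits that couple the GnRH receptor. Gna11 was at 51.4 ± 10.5 CPM in ctrl AA14 and 106.9 ± 12.8 CPM in ctrl vehicle libraries (log2 difference -1.06), and Gnaq was at 46.8 ± 4.03 CPM and 83.7 ± 18.2 CPM in the same groups (-0.84), each with an edgeR adjusted p of 0.141. For cre under AA14, 21 of 24 were positive (median 0.29, beside -0.01 over all genes) and 5 had an unadjusted p under 0.05, beside 8.52% of all genes. In that comparison cre AA14 replicate 1 stands apart, with 662 CPM of Fos, 1101 CPM of Egr1 and 717 CPM of the heat shock gene Hspa1a, and its part in these counts was not tested. Atf3, a stress-induced factor gene, was at 59.3 ± 99.8 CPM in cre AA14 and 2.08 ± 1.43 CPM in ctrl AA14 libraries (log2 difference 4.83, edgeR adjusted p = 0.582), with an SD above the mean in the cre AA14 group.

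Of 10 sex steroid receptor and cofactor genes, 4 were positive and 6 negative for AA14 after control virus (median -0.19, beside -0.02 over all genes), and 1 had an unadjusted p under 0.05, beside 23.8% of all genes. That gene was the progesterone receptor gene Pgr, at 7.17 ± 0.524 CPM in ctrl AA14 and 14.8 ± 2.22 CPM in ctrl vehicle libraries (log2 difference -1.04, edgeR adjusted p = 0.141). Pgr also separated the Malat1 states, being lower in every Malat1-rich library, as 13.1% of all genes were. No Malat1-rich library exceeded 7.74 CPM of Pgr, and no other library fell below 12.7 CPM. The Malat1-rich cre vehicle replicate 1 held 6.75 CPM despite receiving no AA14. Whether Pgr followed treatment or library state was not tested. The estrogen receptor gene Esr1 ranged from 16.1 to 117 CPM over the 12 libraries and was at 79.8 ± 55.4 CPM in ctrl AA14 and 37.7 ± 8.11 CPM in ctrl vehicle libraries (log2 difference 1.08, adjusted p = 0.329).

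Markers of other cells are given beside these groups. All 4 measured genes of the list of glycoprotein hormone partners and thyrotroph genes (Tshb, Trhr, Dio2 and Gpha2) were positive for AA14 after control virus (median 0.44, beside -0.02 over all genes). Tshb was at 463 ± 76.6 CPM in ctrl AA14 and 243 ± 84.8 CPM in ctrl vehicle libraries (log2 difference 0.93, edgeR adjusted p = 0.170), so the other alpha-subunit partner ran in the direction of Cga. Of 8 macrophage markers 7 were negative (median -0.43, beside -0.02 over all genes). Their sum was 122 to 153 CPM in ctrl AA14 and 157 to 221 CPM in ctrl vehicle libraries, the opposite direction to Spp1. Of all genes tested, 20.1% were lower without overlap in this comparison. The 6 oligodendrocyte markers summed to 54.9 to 721 CPM in ctrl AA14 and to 90.0 to 2287 CPM in ctrl vehicle libraries. The steroid cell markers Star, Cyp17a1, Hsd3b1 and Insl3 summed to 4.91 to 7.22 CPM over the 12 libraries. The part of these cells in the differences was not tested.

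Some counts share sequence with neighbours in the annotation. Tgfbr3l shares 1530 exon bases, 52.2% of its exons, with Gm49320 on the same strand, which was at 0.686 to 17.2 CPM, so its count is uncertain. Gm49320 was at 9.16 to 17.2 CPM in the 5 Malat1-rich libraries and at 0.686 to 13.8 CPM in the other 7. These values are small beside Tgfbr3l. How reads that fit both genes were counted is not given, so they do not bound what the Tgfbr3l count lost. Spp1 shares 309 bases (18.75%) with Gm42793 on the same strand, which had 3 to 36 counts, so its count is uncertain too. Cga shares 305 bases (32.0%) with Platr9 and Lhb 138 bases (20.4%) with Ruvbl2, both on the opposite strand. Greb1 shares 736 bases (7.68%) with Gm48140, also on the opposite strand, which had 0 to 87 counts. The strand setting of the counting is not given in the sources used here. Platr9 was at 1.90 to 9.54 CPM and Ruvbl2 at 25.2 to 34.5 CPM over the 12 libraries. On GRCm38, with GENCODE M21, Tgfbr3l lies at chr8:4248214-4251423, Foxp2 at chr6:14901349-15441977, Spp1 at chr5:104435118-104441050, Gnrhr at chr5:86180754-86197901, Nr5a1 at chr2:38692656-38714542, Nr0b1 at chrX:86191764-86195947 and Greb1 at chr12:16670615-16800886.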

How the data were processed

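RNA from mouse pituitary cells that had been dispersed and put through flow cytometry was isolated with TRIzol and made into NEBNext Ultra libraries read as pairs on a NovaSeq, per the labels' protocols. The authors deposited whole read counts per gene ID for each library, made with HISAT2 2.0.0 per the labels and featureCounts 1.5.0-p3 on GRCm38 per the submitters' processing notes, which also name DESeq 1.8.3. How strand and multiply placed reads were handled, and which annotation was counted, is not given in the sources used here.

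Gene IDs were given symbols from GENCODE M21, and counts were scaled by TMM to CPM. Genes were filtered with edgeR's filterByExpr, which kept 22630 of 55421 genes and all 10 members. The main test was edgeR 4.0.16 (glmQLFit and glmQLFTest in R 4.3.3) on the 12 libraries with 1 mean per group and Benjamini-Hochberg adjustment over all genes tested at 0.05, and 95% intervals come from the quasi-likelihood F. The common biological coefficient of variation was 0.445, and the median standard error of a log2 difference was 0.26 for genes of at least 1 CPM. Alternatives used RLE size factors, no count filter, library sizes without 7 hormone genes, DESeq2 1.42.0, limma 3.58.1 (voom with quality weights), only the groups compared, a replicate block, log2 Malat1 as a covariate, and libraries left out.

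The members and lists were chosen with earlier results of these data known. All 10 members are reported. From each list the genes of smallest unadjusted p could be named, and like genes are those of highest Pearson's r. Foxl2, Gm49320, Platr9 and Ruvbl2 were added after their values were seen. Promoters are RefSeq's, on GRCm38.p6, matched by symbol for 8 of the 10 members. Replicates of 1 group differed by far more than counting error, with a lowest chi-square of 58.3 per degree of freedom, so each library counts once.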

Additional observations from a re-analysis of the deposited data

How the results depend on the processing

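Of 50 member differences, all kept their direction and stayed short of an adjusted p of 0.05 under DESeq2, RLE size factors, no count filter and library sizes without the 7 hormone genes. The number of members called was 0 in all 5 comparisons in the main analysis and with any library left out. It became 2 for AA14 after control virus under limma-voom with quality weights, and 1 when only the groups compared were fitted. Over all genes, AA14 after control virus called 1 gene with edgeR, 2299 with DESeq2, 3409 with limma-voom and 2266 with only the groups compared. The causes of the changes below were not tested.

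Of 50 differences, 26 changed sign with log2 Malat1 as a covariate, which cannot be told apart from treatment after control virus. For AA14 after control virus they became -0.12 for Fshb, -0.14 for Cga, -0.048 for Gnrhr, 0.16 for Tgfbr3l, 0.13 for Nr5a1, 0.38 for Nr0b1 and -0.57 for Greb1. For cre under AA14 they became 0.27 for Lhb, 0.15 for Fshb, 0.27 for Cga, -0.53 for Nr0b1, 0.41 for Greb1 and 0.27 for Spp1. For cre under vehicle they became -0.11 for Fshb, -0.13 for Cga, 0.0083 for Nr0b1, -0.23 for Greb1 and -0.029 for Spp1. For the difference of the AA14 effects they became 0.16 for Lhb, 0.27 for Fshb, 0.40 for Cga, -0.24 for Tgfbr3l, -0.16 for Nr5a1, -0.54 for Nr0b1, 0.63 for Greb1 and 0.30 for Spp1.

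Without the 3 oligodendrocyte-rich libraries, 7 changed sign. They became -0.024 for Lhb, -0.012 for Fshb, -0.036 for Cga, 0.030 for Tgfbr3l and -0.072 for Greb1 for AA14 after cre virus, -0.20 for Nr0b1 for cre under AA14, and -0.098 for Tgfbr3l for cre under vehicle. Under limma-voom 6 changed sign, to -0.10 for Greb1 for AA14 after cre virus and, for cre under vehicle, to -0.059 for Fshb, -0.098 for Cga, 0.0028 for Nr0b1, -0.12 for Greb1 and -0.0033 for Spp1.

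Same-numbered libraries were not regularly alike. Over 10690 genes, the correlation of their deviations from group means ran from -0.58 to 0.35, and 1 library matched its own number best. It was 0.73 for the Malat1-rich cre vehicle replicate 1 and cre AA14 replicate 2. It was 0.69 for the oligodendrocyte-rich ctrl vehicle replicate 3 and cre vehicle replicate 2. With library states in these values, the check cannot decide whether numbers mark a shared day or batch. With the replicate block, 1 difference changed sign, to -0.042 for Greb1 for AA14 after cre virus, and no call changed.

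Leaving out 1 library at a time, 310 of 360 differences kept their direction, 50 changed sign, and none passed the threshold. The range for AA14 after control virus was -0.22 to 0.61 for Greb1. The range for AA14 after cre virus was -0.026 to 0.50 for Cga, -0.11 to 0.32 for Fshb, -0.29 to 0.22 for Gnrhr, -0.28 to 0.26 for Greb1, -0.015 to 0.35 for Lhb, -0.74 to 0.034 for Nr0b1, -0.16 to 0.16 for Nr5a1, -0.040 to 0.66 for Spp1, -0.44 to 0.36 for Tgfbr3l. The range for cre under AA14 was -0.15 to 0.37 for Gnrhr, -0.43 to 0.32 for Greb1, -0.12 to 0.12 for Lhb, -0.49 to 0.41 for Nr0b1. The range for cre under vehicle was -0.16 to 0.38 for Cga, -0.092 to 0.37 for Fshb, -0.15 to 0.44 for Greb1, -0.35 to 0.18 for Nr0b1, -0.12 to 0.17 for Nr5a1, -0.070 to 0.61 for Spp1, -0.32 to 0.43 for Tgfbr3l. The range for the difference of the AA14 effects was -0.42 to 0.090 for Gnrhr, -0.53 to 0.29 for Greb1, -0.36 to 0.53 for Nr0b1.

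At 3 libraries per group and a median standard error of 0.26, a missed threshold does not show that levels were alike. Nr0b1, with 123 to 444 counts, has the widest counting error.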

Other observations

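Beyond the comparison of AA14 with vehicle after control virus, the listed pathways gave these counts, again with no gene past edgeR's adjusted threshold of 0.05. For the AA14 effect after cre virus minus that after control virus, 19 of 24 GnRH receptor signalling genes were positive, with a median log2 difference of 0.48, beside 0.03 over all genes, and 6 had an unadjusted p under 0.05, beside 7.03% of all genes. The smallest p in that list was of Atf3, at 59.3 ± 99.8 CPM in cre AA14 libraries (SD, n = 3), where replicate 1 also held 662 CPM of Fos, 1101 CPM of Egr1 and 717 CPM of Hspa1a. The part of that library in the count was not tested. Gna11, a Gq-class alpha subunit gene, had a difference of 1.04 (95% interval 0.17 to 1.91, edgeR adjusted p = 0.631). In the same comparison 7 of 12 gonadotroph transcription factor genes (median 0.43), 10 of 15 activin, inhibin and follistatin genes (median 0.19) and 7 of 10 sex steroid receptor and cofactor genes (median 0.04) were positive. All 8 macrophage markers were positive (median 0.55), and 5 of 6 oligodendrocyte markers were negative (median -1.62). Of the 4 measured glycoprotein hormone partner and thyrotroph genes 3 were negative and Gpha2 was positive (median -0.29). Of the 2 measured steroid cell genes 1 was positive (median 0.09).

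For AA14 after cre virus, 12 of 24 GnRH receptor signalling genes were positive (median 0.01, beside -0.002 over all genes). Positive too were 7 of 15 activin, inhibin and follistatin genes (median -0.04) and 2 of 10 sex steroid receptor and cofactor genes (median -0.14). All 6 oligodendrocyte markers were negative in that comparison (median -2.84), and cre vehicle replicate 2, with a sum of 3233 CPM, held the most. For cre under vehicle, 6 of 24 GnRH receptor signalling genes (median -0.23) and 0 of 8 macrophage markers (median -0.32) were positive. Over all genes the median was -0.02 there. No gene of these lists had an unadjusted p under 0.05 under vehicle, and edgeR called none of them.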
